A study of Mus musculus with 12 samples.

Results

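Liver RNA taken 12 h after a 70% partial hepatectomy was compared with liver RNA taken 3 h after it, over all genes. The comparison used the 3 libraries whose titles carry 12 h and the 3 whose titles carry 3 h, 6 of the 12 libraries of the study, and left the sham-operated livers aside. All 6 came from whole livers of wild-type C57/BL6J mice, and both groups had been resected, so no unoperated liver enters the comparison. Poly(A) RNA was extracted with TRIzol and made into libraries with a NEBNext Ultra kit, per the labels. Whether each library is a different mouse is not stated in the labels, so the p-values measure the spread between these samples, which may be technical. The groups lie 9 h apart, so the hour after resection and the hour of the day cannot be told apart. Means of 3 libraries titled 6 h are cited in places only to show where that time lay. One of those carries a later time tag than its title.

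After removal of most of the liver, the hepatocytes that remain leave quiescence and divide until the mass is restored. In mice the first hours are a priming phase, in which cytokines such as TNF and IL-6 and stress hormones switch on immediate early transcription factors, and the cells then pass through G1 towards DNA synthesis. Throughout, the organ has to go on making plasma proteins, lipoproteins, bile acids and glucose.

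Library totals were 16429539 to 16629328 counts at 12 h and 15573405 to 16210344 counts at 3 h. The hepatocyte transcripts Alb, Ttr, Apoa1, Serpina1a, Cyp2e1, Cps1 and Ass1, checked as markers of the labelled tissue, lay between 506 and 31140 FPKM in every library (fragments per kilobase of gene, scaled to library size, as deposited). Correlations of log2(FPKM + 1) across the tested genes were 0.978 or more within the 12 h group, 0.979 or more within the 3 h group and 0.916 to 0.936 between them. The first principal component held 70.0% of the variance and separated the groups, and the second, with 9.77%, set 3 h replicate 2 apart. Mitochondrially encoded transcripts took 7.52% to 8.18% of the counts at 12 h and 5.84% to 6.25% at 3 h.

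A gene was tested where at least 3 of the 6 libraries reached 1 FPKM. Of the 10623 tested, 2557 (24.1%) were higher and 2504 (23.6%) were lower at 12 h than at 3 h, 47.6% in all. Calls were made with edgeR's quasi-likelihood test at a Benjamini-Hochberg adjusted p under 0.05. The difference reached 2-fold for 765 of the higher and 886 of the lower genes, and 8-fold for 43 and 50. The median log2 difference of all tested genes was 0.01, so both directions were about equally filled. That balance depends on the scaling: with library totals in place of TMM factors, the median of all genes moved to 0.168, and 3692 genes were higher and 2040 lower (64.4% of the calls higher, against 50.5%). At 6 h, the mean lay between the 12 h and 3 h means for 1631 of the 2557 higher genes (63.8%). It did so for 1914 of the 2504 lower genes (76.4%) and for 48.5% of all tested genes. Calling selects genes with a gap between the 12 h and 3 h means, which by itself raises this share. No time course is read from it.

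**Figure D1:**
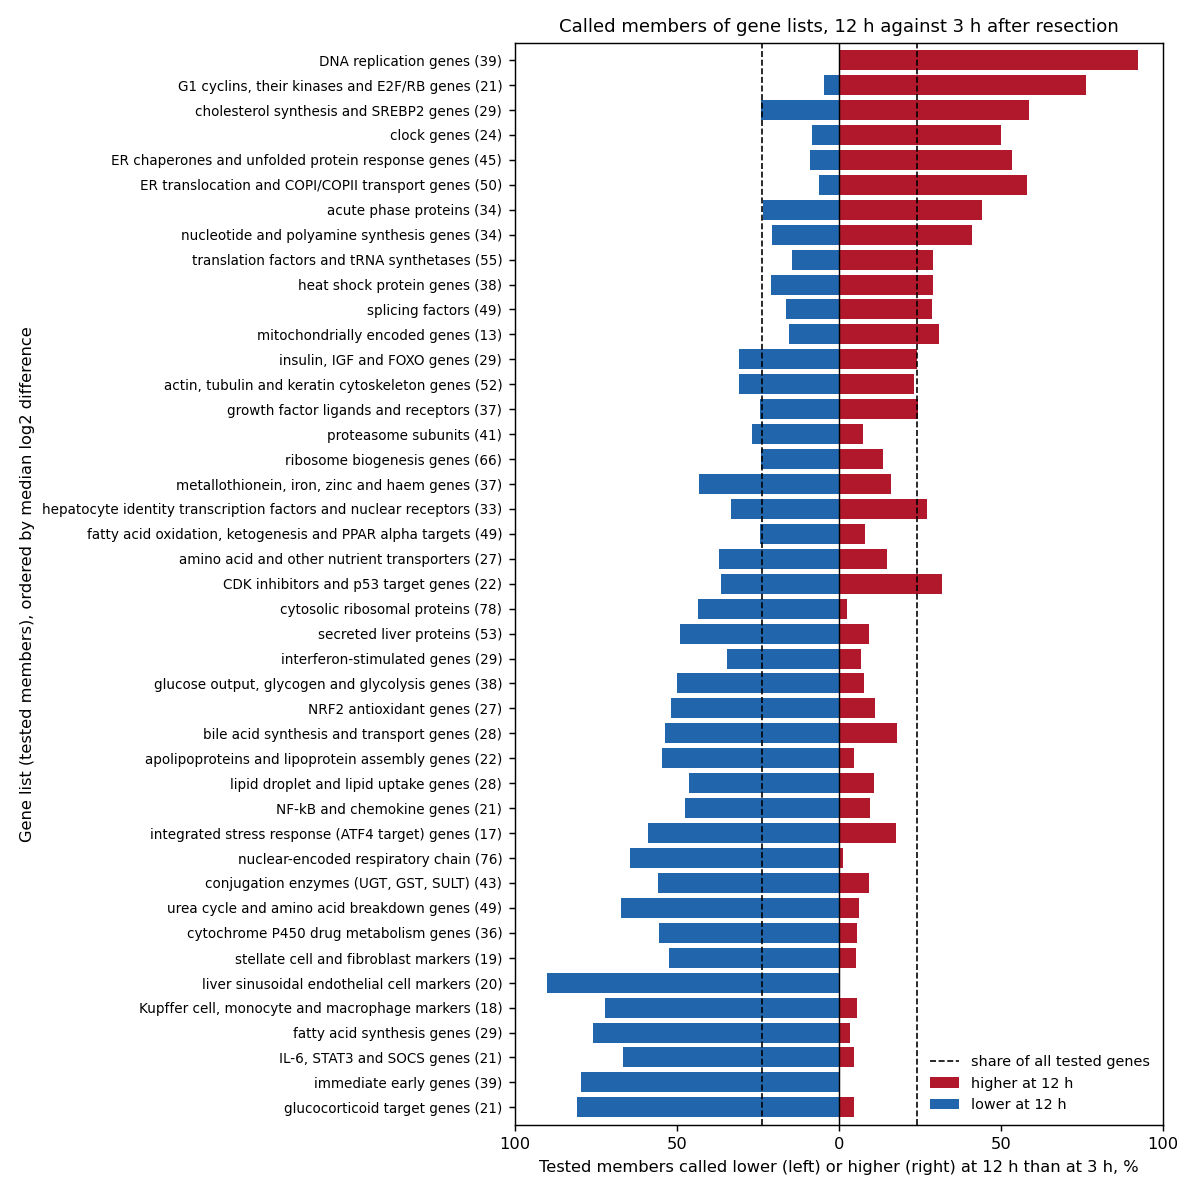
Share of tested members (%, x axis) of each gene list with 10 or more tested members that was called lower (blue, left) or higher (red, right) at 12 h than at 3 h; dashed lines mark the shares of all tested genes, 24.1% higher and 23.6% lower. Lists are ordered by median log2 difference, with DNA replication genes at the top (36 of 39 members higher) and glucocorticoid target genes at the bottom (17 of 21 lower); by share lower, sinusoidal endothelial markers reach furthest (18 of 20).

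The most uniform change was in the machinery that copies DNA. Of 39 tested DNA replication genes, 36 were higher at 12 h and 0 lower, with a median log2 difference of 1.41, beside 24.1% higher and a median of 0.01 over all tested genes. The Mcm genes encode subunits of the replicative helicase. Mcm5 (ENSMUSG00000005410, chr8:75109569-75128439) had 4.88, 10.7 and 6.77 FPKM at 12 h, against 0.834, 0.577 and 0.366 FPKM at 3 h. Mcm6 (ENSMUSG00000026355, chr1:128331590-128359664) had 5.03, 13.5 and 8.94 FPKM at 12 h, against 0.846, 0.861 and 0.821 FPKM at 3 h. Neither gene's groups overlapped, and 12 h replicate 2 was the highest library for both. The log2 differences were 3.66 ± 0.35 (SE) for Mcm5 and 3.47 ± 0.33 for Mcm6, with edgeR adjusted p = 7.04e-05 and 6.91e-05. Mcm3 (3.18 ± 0.26) and Mcm4 (2.89 ± 0.20) rose by like amounts.

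The factors that load and guard the helicase rose with it. Cdt1, which brings the helicase to origins, had 3.76, 5.90 and 5.05 FPKM at 12 h, against 0.589, 0.608 and 0.355 FPKM at 3 h, and Gmnn, which encodes its inhibitor geminin, had 5.98, 12.5 and 8.14 FPKM, against 1.26, 0.540 and 1.24 FPKM. Their log2 differences were 3.26 ± 0.27 and 3.15 ± 0.36 (edgeR adjusted p = 3.60e-05 and 1.69e-04). Uhrf1, which carries DNA methylation through replication, showed 5.36 ± 0.68, with 1.66, 8.50 and 3.04 FPKM at 12 h and 0.130, 0.0928 and 0.0981 FPKM at 3 h. The single-strand binding subunit Rpa2 (2.70 ± 0.30), the ribonucleotide reductase subunit Rrm1 (1.81 ± 0.20) and the sliding clamp Pcna (1.24 ± 0.25) also rose. The 3 tested members that were not called are named here after their values were seen: Gins4 (0.33 ± 0.23), Rrm2, the other reductase subunit (-0.03 ± 0.32), and Tk1, thymidine kinase (-0.85 ± 0.34, edgeR adjusted p = 0.0648). Tk1 was called lower by DESeq2 and limma-voom, with library totals and without 12 h replicate 2 (-1.38). Rrm2 had 2.71, 6.74 and 3.07 FPKM at 12 h and 4.96, 3.30 and 4.85 FPKM at 3 h, and the groups overlapped.

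Promoters of replication genes are known to be bound by E2F factors, and the windows before Mcm5 and Mcm6 are shown because they belong to the replication genes with the largest rises among those whose window held the searched letters. The 250 bases before the start site are from RefSeq on GRCm38.p6, read 5′ to 3′ on the strand of the gene, with matches to TTTGGCGC in capitals, which appear as GCGCCAAA where the match is on the other strand. They are chr8:75109259-75109508 on the plus strand for Mcm5 and chr1:128359706-128359955 on the minus strand for Mcm6.
Mcm5: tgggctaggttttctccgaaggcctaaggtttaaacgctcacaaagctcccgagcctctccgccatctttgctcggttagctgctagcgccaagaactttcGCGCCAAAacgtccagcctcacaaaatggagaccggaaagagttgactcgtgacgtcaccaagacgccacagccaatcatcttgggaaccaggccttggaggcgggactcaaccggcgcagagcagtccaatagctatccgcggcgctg
Mcm6: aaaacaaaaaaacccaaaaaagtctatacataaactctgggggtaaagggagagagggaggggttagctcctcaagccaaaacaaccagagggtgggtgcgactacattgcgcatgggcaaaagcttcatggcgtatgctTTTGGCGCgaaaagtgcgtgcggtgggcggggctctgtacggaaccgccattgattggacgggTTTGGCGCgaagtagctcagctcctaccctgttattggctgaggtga
Over windows that run 50 bases further, TTTGGCGC on either strand was present in 4 of 33 replication promoters, in 0.514% of all 32851 promoters in the table and in 1.07% of those of tested genes. The E2F-like word TTTCCCGC was present in 7 of 33 replication promoters, in 1.07% of all promoters and in 2.13% of those of tested genes. No match of one word overlapped a match of the other, and a match is a description of the letters only.

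Most G1 cyclins and their kinases were higher as well: 16 of 21 tested members of the list were higher and 1 lower, with a median log2 difference of 1.18. Ccnd1, the D cyclin that links growth signals to the cell cycle, had 30.3, 26.3 and 22.0 FPKM at 12 h, against 6.27, 8.03 and 6.34 FPKM at 3 h (1.96 ± 0.16, edgeR adjusted p = 3.38e-05). Ccne1, an E cyclin that drives entry into S phase, had 2.93, 3.70 and 3.35 FPKM at 12 h and 0.718, 0.817 and 0.549 FPKM at 3 h (2.28 ± 0.24). Both sets were separate, as they were for Ccne2 (3.27 ± 0.32), the phosphatase Cdc25a (2.47 ± 0.22), the kinase Cdk2 (1.66 ± 0.15) and the transcription factor E2f1 (2.20 ± 0.39). The 1 lower member was E2f4, a repressive E2F named after its value was seen (-0.67 ± 0.12). Myc, a growth-promoting factor in both this list and that of immediate early genes, was not called, with 1.89, 4.88 and 3.55 FPKM at 12 h and 3.79, 4.87 and 4.77 FPKM at 3 h (-0.35 ± 0.29).

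Mitotic genes were mostly too low to test: 27 of 30 members did not pass the level filter, so they have values and no test. Summed over 3 libraries, 24 of the 27 had more counts at 12 h and 3 had more at 3 h. Of the 24, 16 had at least 2 times as many at 12 h and 7 at least 4 times. These are raw counts, with no scaling and no share over all genes to set beside them. Together they summed to 8.51, 21.03 and 11.2 FPKM at 12 h, against 6.18, 6.42 and 7.60 FPKM at 3 h, with 12 h replicate 2 the highest. The untested members named here were chosen after their values were seen. Top2a, the topoisomerase that untangles chromosomes, had 670 counts at 12 h and 91 at 3 h, the spindle checkpoint gene Mad2l1 495 and 72, and the checkpoint kinase Ttk 190 and 7. Mki67, a standard marker of dividing cells, had 210 counts at 12 h and 142 at 3 h. Among other untested genes, Bub1 had 46 counts at 12 h and 6 at 3 h, Aurkb 77 and 13 and Birc5 131 and 26. Some untested genes differed less or the other way. Ccnb1 had 41 and 37, Cdc20 67 and 54 and Foxm1 59 and 49, while Plk1 had 27 and 40 and Ccnb2 16 and 35. Of the 3 tested members, Ect2, a regulator of cytokinesis, was higher (2.51 ± 0.39) and Ccnf, cyclin F, was lower (-1.26 ± 0.17).

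The list of CDK inhibitors and p53 targets divided, with 7 of 22 tested members higher and 8 lower (median -0.30). These were 31.8% and 36.4%, beside 24.1% and 23.6% of all tested genes. Cdkn1a (ENSMUSG00000023067, chr17:29090976-29100727), which encodes the inhibitor p21, had 0.883, 0.832 and 0.520 FPKM at 12 h, against 48.1, 67.0 and 69.8 FPKM at 3 h. The mean was 82.7 times lower at 12 h, a log2 difference of -6.33 ± 0.24 (edgeR adjusted p = 5.54e-07), the second largest fall among the named protein-coding genes. The antiproliferative gene Btg2 (-2.88 ± 0.16) and the stress-induced genes Ddit4 (-3.31 ± 0.48), Gdf15 (-2.40 ± 0.50) and Plk3 (-1.36 ± 0.19) were lower too. Against them stood the inhibitors Cdkn1b, p27 (0.94 ± 0.13), and Cdkn2c, p18 (1.63 ± 0.29). Cdkn2c had 1.93, 3.69 and 2.23 FPKM at 12 h and 0.873, 0.809 and 0.907 FPKM at 3 h, so p21 and p18 transcripts moved in opposite directions.

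**Figure D2:**
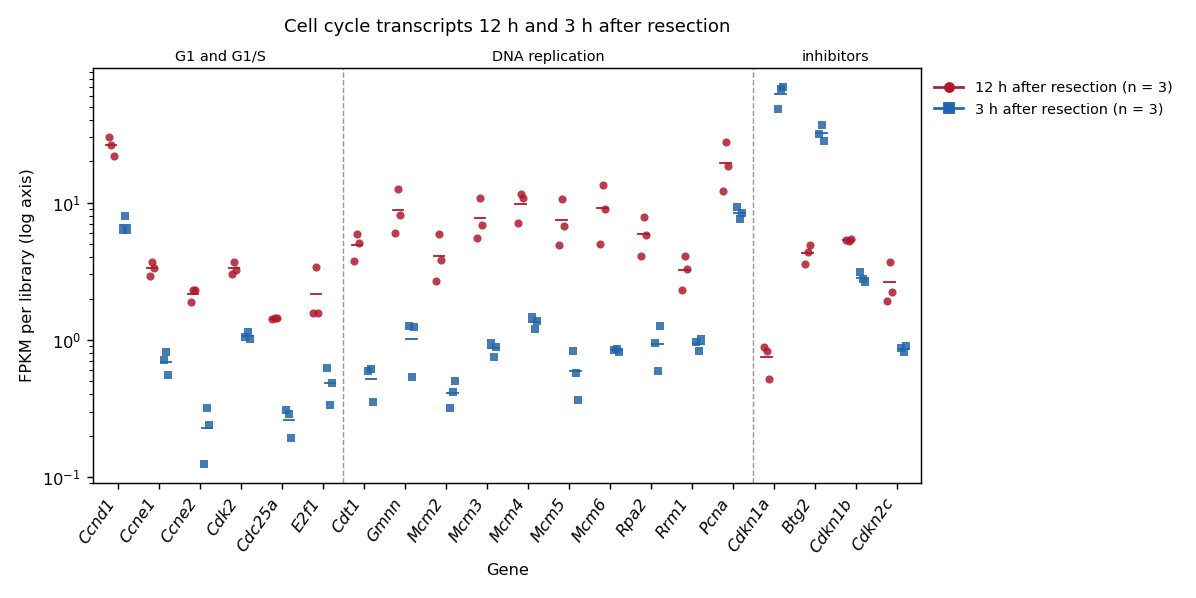
FPKM of cell cycle genes (x axis) on a log axis, each point 1 library and each short line the mean of 3, with 12 h (red circles) left of 3 h (blue squares). G1 and replication genes sit higher at 12 h, such as Ccnd1 at 22.0 to 30.3 against 6.27 to 8.03 FPKM, while Cdkn1a sits at 0.520 to 0.883 at 12 h against 48.1 to 69.8 FPKM at 3 h.

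Immediate early genes, which respond to signals within minutes through factors already in the cell, were lower at 12 h or not called: 31 of 39 tested members were lower and 0 higher, with a median log2 difference of -1.497, beside 23.6% lower over all genes. The 12 h libraries lay wholly below the 3 h libraries for 31 members and wholly above for 0, beside 29.3% and 27.6% of all tested genes (57% without overlap in either direction). Junb, an AP-1 subunit, had 14.91, 12.2 and 12.7 FPKM at 12 h, against 110, 68.5 and 73.7 FPKM at 3 h (-2.63 ± 0.20, edgeR adjusted p = 2.42e-05). Gadd45g, a growth arrest and DNA damage gene, had 25.5, 26.4 and 26.8 FPKM at 12 h, against 200.4, 220.0 and 232.9 FPKM at 3 h (-3.02 ± 0.11). Egr1 (-3.36 ± 0.50), Dusp1, a phosphatase that switches off MAP kinases (-2.68 ± 0.15), and Jun (-1.58 ± 0.15) fell with them. Fos had 1.06, 0.303 and 0.286 FPKM at 12 h and 8.63, 1.79 and 1.303 FPKM at 3 h. Its difference of -2.80 ± 0.77 (edgeR adjusted p = 0.0141) was -1.45 and not called without 3 h replicate 1, and -2.49 and not called without 12 h replicate 3. Limma-voom and edgeR's robust option did not call it either. Atf3 was not called (-0.83 ± 0.39), though it was without 12 h replicate 1 (-1.28).

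In the list of IL-6 pathway genes and receptors, 14 of 21 tested members were lower and 1 higher (median -0.99). Cebpb and Cebpd, transcription factors induced by IL-6 and IL-1, fell by 2.34 ± 0.12 and 2.90 ± 0.17 on the log2 scale, and Cebpb had 36.2, 38.9 and 36.4 FPKM at 12 h against 171.5, 203.9 and 202.7 FPKM at 3 h. The feedback inhibitor Socs3 had 17.2, 15.2 and 14.86 FPKM at 12 h against 37.0, 32.5 and 31.2 FPKM at 3 h (-1.06 ± 0.12, edgeR adjusted p = 1.60e-04). The receptors Il1r1 (-2.30 ± 0.25), Il6ra (-1.25 ± 0.23) and Il11ra1 (-1.08 ± 0.12) were lower. The 1 higher member was the kinase Jak2, named after its value was seen (0.87 ± 0.17). In the list of NF-kB and chemokine genes 10 of 21 members were lower and 2 higher (median -0.55): Zfp36, which destabilizes cytokine mRNAs, fell (-2.02 ± 0.13), while the chemokine Cxcl12, at 44.0, 40.8 and 40.0 FPKM at 12 h and 18.6, 17.6 and 15.9 FPKM at 3 h, rose (1.29 ± 0.12). Interferon-stimulated genes had 10 of 29 members lower and 2 higher (median -0.42), led by Rsad2 (-2.28 ± 0.35) and Oas2 (-1.59 ± 0.24). With 1 library left out, 7 to 12 of them were lower. The shares lower were 66.7% in the IL-6 list, 47.6% in the NF-kB list and 34.5% here, beside 23.6% of all tested genes. The shares higher were 4.76%, 9.52% and 6.9%, beside 24.1%.

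The acute phase proteins themselves, which hepatocytes secrete under the control of IL-6, did not follow those regulators. Of 34 tested members, 15 were higher (44.1%, beside 24.1% of all tested genes) and 8 lower (23.5%, beside 23.6%), with a median of 0.30. The share lower was thus that of all tested genes. The summed share of counts was 14.0% to 15.6% at 12 h and 10.4% to 12.0% at 3 h. Orm2 (orosomucoid 2) had 293.3, 205.5 and 213.9 FPKM at 12 h, against 42.7, 39.9 and 59.3 FPKM at 3 h (2.37 ± 0.19, edgeR adjusted p = 3.29e-05), and Apcs, serum amyloid P, had 1418, 1591 and 1738 FPKM against 498.2, 612.8 and 429.2 FPKM (1.65 ± 0.16). Fgl1 (1.22 ± 0.14), Lcn2 (1.08 ± 0.26) and Saa1 (0.85 ± 0.16) were higher as well; the reads of Saa1 and of Orm2 may be shared with close copies. In the other direction were the metalloreductase Steap4, at 88.9, 94.2 and 131.8 FPKM at 12 h and 519, 723.5 and 663 FPKM at 3 h (-2.56 ± 0.19), Hamp2, a hepcidin copy (-2.03 ± 0.34), and Saa4 (-1.12 ± 0.18). The 15 higher members became 8 without 12 h replicate 3 and 8 without 3 h replicate 1, and 9 with limma on FPKM, while the lower count stayed between 7 and 9 in the 6 fits that left out 1 library.

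Targets of the glucocorticoid receptor were the list with the lowest median among those with 10 or more tested members: 17 of 21 were lower and 1 higher, with a median log2 difference of -1.67. Several of these are also early or stress genes, Cdkn1a, Gadd45g, Cebpd and Dusp1 among them. Mt2, a metallothionein, had 2.58, 3.07 and 1.91 FPKM at 12 h, against 63.4, 65.3 and 46.7 FPKM at 3 h (-4.50 ± 0.22, edgeR adjusted p = 4.45e-06), and Zbtb16, a zinc finger repressor, had 0.830, 1.28 and 0.445 FPKM, against 11.2, 10.04 and 12.4 FPKM (-3.68 ± 0.29). Mt1 (-1.67 ± 0.14) and Tat, tyrosine aminotransferase (-1.55 ± 0.21), were lower, and the reads of Mt1 and Mt2 may be shared. Pck1, the gluconeogenic enzyme in the same list, was not called (0.04 ± 0.12), with 772.2, 690.0 and 817.3 FPKM at 12 h and 795.6, 705.5 and 767.6 FPKM at 3 h. Igfbp1 (ENSMUSG00000020429, chr11:7197782-7202546), a secreted binder of insulin-like growth factors that insulin represses, had 28.2, 11.9 and 12.96 FPKM at 12 h, against 472.3, 643.2 and 439.5 FPKM at 3 h, a fall of 4.84 ± 0.36 on the log2 scale (edgeR adjusted p = 2.36e-05). The insulin receptor substrate Irs2 fell too (-2.03 ± 0.38).

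**Figure D3:**
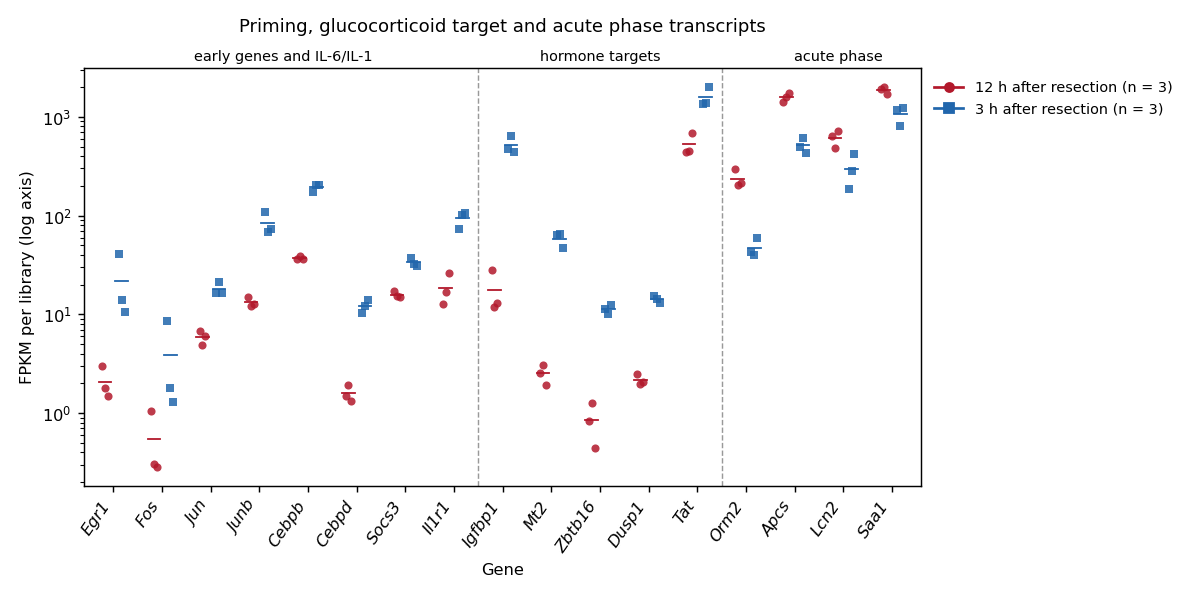
FPKM of early, hormone target and acute phase genes (x axis) on a log axis, each point 1 library and each short line the mean of 3, with 12 h (red circles) left of 3 h (blue squares). Early and hormone target genes lie lower at 12 h, such as Igfbp1 at 11.9 to 28.2 FPKM at 12 h against 439.5 to 643.2 FPKM at 3 h, and Orm2, Apcs, Lcn2 and Saa1 lie higher.

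Growth factor ligands and receptors were called as often as all tested genes, 9 of 37 higher (24.3%, beside 24.1%) and 9 lower (24.3%, beside 23.6%). Their median was -0.05, and with library totals it was 0.11, with 15 higher and 10 lower. Met, the receptor of hepatocyte growth factor, had 13.5, 12.7 and 14.2 FPKM at 12 h and 6.30, 7.29 and 7.97 FPKM at 3 h (0.94 ± 0.11, edgeR adjusted p = 2.22e-04), and Tgfa, a ligand of the EGF receptor, rose by 0.85 ± 0.12. Inhba, an activin subunit (1.72 ± 0.39), and Pdgfa (1.504 ± 0.24) were higher as well. On the lower side were Pdgfrb (-1.07 ± 0.25), Tgfb1 (-1.05 ± 0.21), Smad1 (-0.85 ± 0.13) and Hgfac (-0.82 ± 0.14). Egfr (-0.21 ± 0.12) and Hgf (0.47 ± 0.20) were not called, although Hgf was without 3 h replicate 2 (0.70) and with library totals (0.64).

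Clock genes included some of the largest differences in the data. Of 24 tested members, 12 were higher and 2 lower, with a median log2 difference of 0.71. The clock is a feedback loop in which the activators BMAL1 (Arntl) and CLOCK drive their own repressors of the PER, CRY and REV-ERB families and the output factors Dbp, Tef and Hlf. Dbp (ENSMUSG00000059824, chr7:45705088-45710203) had 15.02, 17.1 and 13.7 FPKM at 12 h, against 0.330, 0.264 and 0.233 FPKM at 3 h, a ratio of 55.5 and a log2 difference of 5.80 ± 0.19 (edgeR adjusted p = 5.54e-07), the largest among the named rises. Arntl had 0.187, 0.211 and 0.261 FPKM at 12 h, against 3.62, 3.81 and 3.16 FPKM at 3 h (-3.97 ± 0.18, edgeR adjusted p = 2.33e-06). The activator and its output thus lay on opposite sides, with no overlap of the groups in either.

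The repressors did not move as 1 block. Per3 had 4.18, 3.19 and 3.51 FPKM at 12 h and 0.0770, 0.0686 and 0.102 FPKM at 3 h (5.49 ± 0.20), and Per2 had 7.16, 7.31 and 6.85 FPKM against 0.895, 0.619 and 0.987 FPKM (3.12 ± 0.17). Per1 (-0.20 ± 0.33), Cry1 (-0.63 ± 0.25) and Nr1d1, REV-ERB alpha (0.71 ± 0.49), were not called. Nr1d1 had 10.48, 5.64 and 7.04 FPKM at 12 h and 5.49, 1.22 and 7.87 FPKM at 3 h, and its groups overlapped. With library totals Nr1d1 was called higher (0.88), and Cry1 was called lower by DESeq2 and without 3 h replicate 3 (-0.89). The paralog Nr1d2 rose (2.62 ± 0.35), as did Tef (2.69 ± 0.27) and the deubiquitinase Usp2 (2.47 ± 0.19). Wee1, a clock-controlled kinase that restrains entry into mitosis, had 7.36, 7.48 and 7.89 FPKM at 12 h and 0.343, 0.674 and 0.326 FPKM at 3 h (4.11 ± 0.24). The other lower member was Nfil3, a repressor of the Dbp family's target sites, named after its value was seen (-2.24 ± 0.13). The 6 h means of Dbp, Per2 and Per3 were 0.251, 0.856 and 0.0762 FPKM, close to those at 3 h.

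The core clock acts through the E-box CACGTG, and windows are shown for a member that rose, Tef, and for a member that was not called, Per1, because both hold it. The 250 bases before each start site are from RefSeq on GRCm38.p6, on the plus strand of both genes, chr15:81802423-81802672 for Tef and chr11:69098699-69098948 for Per1, with the E-box in capitals.
Tef: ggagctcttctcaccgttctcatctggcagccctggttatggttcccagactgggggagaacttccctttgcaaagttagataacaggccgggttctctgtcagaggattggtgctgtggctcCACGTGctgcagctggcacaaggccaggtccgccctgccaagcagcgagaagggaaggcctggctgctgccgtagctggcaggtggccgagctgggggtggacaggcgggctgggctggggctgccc
Per1: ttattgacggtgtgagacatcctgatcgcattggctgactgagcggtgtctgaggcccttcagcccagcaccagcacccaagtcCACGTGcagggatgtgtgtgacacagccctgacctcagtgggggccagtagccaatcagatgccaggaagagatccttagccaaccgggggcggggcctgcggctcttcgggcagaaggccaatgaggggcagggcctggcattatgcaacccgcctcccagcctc
With 50 further bases per window, CACGTG, which reads the same on both strands, was present in 5 of 18 clock promoters that matched the RefSeq table, in 7.15% of all 32851 promoters and in 10.7% of those of tested genes. The letters were thus present in the window of a gene whose groups were separate and in that of a gene whose groups overlapped.

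**Figure D4:**
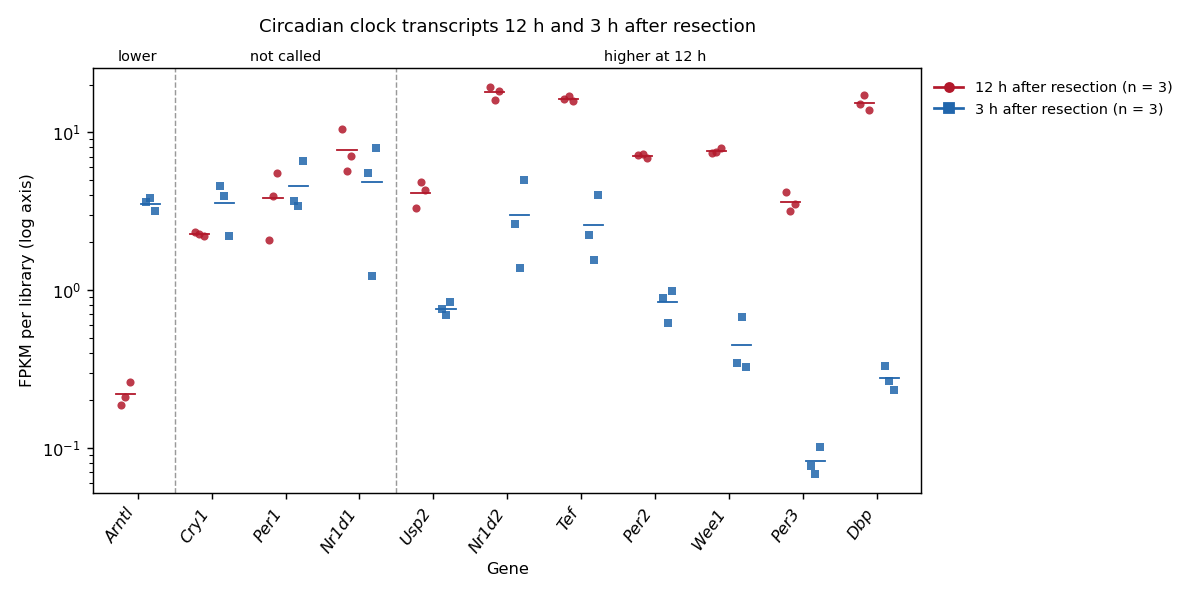
FPKM of clock genes (x axis) on a log axis, each point 1 library and each short line the mean of 3, with 12 h (red circles) left of 3 h (blue squares). Arntl lies lower at 12 h (0.187 to 0.261 against 3.16 to 3.81 FPKM), Cry1, Per1 and Nr1d1 overlap between the times, and Dbp lies highest above its 3 h values (13.7 to 17.1 against 0.233 to 0.330 FPKM).

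Genes for folding and export of secreted proteins had more members higher than lower. Of 45 tested endoplasmic reticulum (ER) chaperone and unfolded protein response genes, 24 were higher and 4 lower (median 0.42), and of 50 ER translocation and vesicle transport genes, 29 were higher and 3 lower (median 0.40). With 1 library left out, 20 to 23 of the first list and 21 to 29 of the second were higher. Hspa5, the ER chaperone BiP, had 376.1, 317.9 and 468.2 FPKM at 12 h, against 159.2, 148.3 and 195.4 FPKM at 3 h (1.24 ± 0.16, edgeR adjusted p = 3.11e-04). Hsp90b1, the ER form of HSP90, had 248.2, 247.1 and 357.1 FPKM, against 137.6, 151.6 and 122.1 FPKM (1.08 ± 0.17). The groups were separate for both, as for the secreted ER stress proteins Creld2 (1.20 ± 0.11) and Manf (1.34 ± 0.16), the co-chaperones Dnajb9 (1.70 ± 0.30) and Dnajc10 (1.52 ± 0.14) and the prolyl isomerase Fkbp11 (1.78 ± 0.19). In the transport list, Ssr3, a subunit of the translocon-associated complex, had 109.2, 114.4 and 135.4 FPKM at 12 h and 52.2, 50.3 and 55.3 FPKM at 3 h (1.22 ± 0.12), and the cargo receptor Tmed3 rose by 1.63 ± 0.18.

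Members of the same lists that were lower included regulators. Xbp1, the transcription factor that induces many ER genes, had 84.5, 89.9 and 91.7 FPKM at 12 h, against 169.1, 174.3 and 178.1 FPKM at 3 h (-0.94 ± 0.11, edgeR adjusted p = 1.54e-04), and its 6 h mean was 225 FPKM. The other lower members of the chaperone list, named after their values were seen, were the nucleotide exchange factor Sil1 (-0.83 ± 0.10), the transcription factor Creb3l2 (-0.61 ± 0.15) and the prolyl isomerase Fkbp2 (-0.95 ± 0.18). In the transport list the GTPase Sar1b (-0.84 ± 0.12) was lower, and so were Dad1 (-0.44 ± 0.11) and Cope (-0.42 ± 0.10), whose calls ended with library totals.

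The ER stress response element is the composite word that ATF6 is known to recognise with NF-Y, and 2 promoters that hold it are shown, since Hspa5 and Hsp90b1 are the chaperones whose values open this account. The searched word was CCAAT, 9 bases of any kind, then CCACG, on either strand. The windows are the 250 bases before the start site from RefSeq on GRCm38.p6, chr2:34771840-34772089 on the plus strand for Hspa5 and chr10:86705445-86705694 on the minus strand for Hsp90b1, with matches in capitals.
Hspa5: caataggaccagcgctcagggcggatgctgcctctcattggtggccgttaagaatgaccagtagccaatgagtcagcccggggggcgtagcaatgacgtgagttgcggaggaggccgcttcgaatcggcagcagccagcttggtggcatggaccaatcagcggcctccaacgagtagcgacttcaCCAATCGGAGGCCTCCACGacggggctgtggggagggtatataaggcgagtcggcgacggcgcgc
Hsp90b1: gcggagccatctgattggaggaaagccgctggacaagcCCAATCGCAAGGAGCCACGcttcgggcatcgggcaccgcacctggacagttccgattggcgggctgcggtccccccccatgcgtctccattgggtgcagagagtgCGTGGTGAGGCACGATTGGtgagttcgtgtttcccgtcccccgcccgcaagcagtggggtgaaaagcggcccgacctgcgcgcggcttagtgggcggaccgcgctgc
Over 300 bases per window the word was present in 9 of the 37 chaperone and unfolded protein response promoters that matched, 24.3%, against 0.119% of all 32851 promoters and 0.207% of those of tested genes. Holding it did not go with 1 behaviour: 6 of the 9 genes were higher, and Canx (0.29 ± 0.12), Pdia6 (0.14 ± 0.14) and Derl3 (-0.37 ± 0.50), named for that reason after their values were seen, were not called. Canx was called higher without 3 h replicate 2 (0.38) and with library totals. The 6 became 3 without 12 h replicate 3 and 4 without 12 h replicate 1, 3 h replicate 1 or 3 h replicate 3, and 4 with limma on FPKM, since the calls of Calr, Dnajc3 or Syvn1, named after their values were seen, ended there.

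Among the tested ATF4 targets of the stress response, more were lower (58.8%) than higher (17.6%), beside 23.6% and 24.1% of all tested genes. Another 12 of the 29 listed did not pass the level filter. The lower members Ddit4 and Gdf15 are also in the p53 target list, and Cebpb, lower too, is also an immediate early gene. Of 17 tested members 10 were lower and 3 higher (median -0.55), and the 3 higher ones were Asns, asparagine synthetase, at 4.47, 6.33 and 5.57 FPKM at 12 h and 1.31, 1.61 and 1.40 FPKM at 3 h (1.95 ± 0.19), Trib3 (1.80 ± 0.32) and Ddit3, the factor CHOP (1.20 ± 0.26). Among heat shock genes 11 of 38 were higher (28.9%) and 8 lower (21.1%), beside 24.1% and 23.6% of all tested genes (median 0.14). The small heat shock gene Hspb1 had 3.57, 3.35 and 3.91 FPKM at 12 h and 21, 26.8 and 23.9 FPKM at 3 h (-2.69 ± 0.16). Hsf2, a heat shock factor, was higher (1.59 ± 0.14).

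Cholesterol synthesis and fatty acid synthesis parted. Of 29 cholesterol synthesis and SREBP2 genes 17 were higher and 7 lower (median 0.97), and of 29 fatty acid synthesis genes 1 was higher and 22 lower (median -0.97). Hmgcs1, an early enzyme of cholesterol synthesis, had 47.4, 109.3 and 100.5 FPKM at 12 h, against 37.5, 21.1 and 24.0 FPKM at 3 h (1.67 ± 0.31, edgeR adjusted p = 0.00212). Its groups were separate, with 12 h replicate 1 the lowest of the 12 h libraries, as it also was for Msmo1 (1.89 ± 0.21), Mvd (2.39 ± 0.37) and Fdps (3.13 ± 0.44). The cholesterol carrier Stard4 (2.04 ± 0.16) and the SREBP retention factor Insig1 (1.74 ± 0.25) rose with the enzymes.

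Members of the list on the other side included enzymes and regulators. The enzymes Pmvk, Tm7sf2 and Ebp and the ubiquitin ligase Mylip, named after their values were seen, were lower (-1.37 ± 0.25 for Pmvk, -1.19 ± 0.20 for Tm7sf2, -0.61 ± 0.14 for Ebp, -0.77 ± 0.25 for Mylip). Insig2, which like Insig1 keeps SREBPs in the ER, had 54.7, 36.6 and 23.5 FPKM at 12 h, against 284, 366.3 and 268 FPKM at 3 h (-2.97 ± 0.29, edgeR adjusted p = 7.55e-05), so the paralogs moved in opposite directions. Scap, which escorts SREBPs, fell by 0.94 ± 0.13, and Srebf2, which encodes SREBP2, was not called (-0.17 ± 0.14), both named after their values were seen. SREBP2 is known to bind sterol regulatory elements, and the window of Hmgcs1 is shown as the 1 of 21 matched promoters of this list that held the searched word TCACNCCAC, in which N is any base, on either strand. The word was present in 1.24% of all 32851 promoters and in 1.12% of those of tested genes, and the 250 bases printed are chr13:119690101-119690350 on the plus strand, from RefSeq on GRCm38.p6, with the match in capitals.
Hmgcs1: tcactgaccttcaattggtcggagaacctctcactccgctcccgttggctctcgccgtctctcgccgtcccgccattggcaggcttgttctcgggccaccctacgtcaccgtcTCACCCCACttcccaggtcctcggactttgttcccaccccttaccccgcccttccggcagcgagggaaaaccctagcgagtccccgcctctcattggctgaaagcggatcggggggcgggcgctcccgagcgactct

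Among fatty acid genes the falls were large. Elovl3 (ENSMUSG00000038754, chr19:46131897-46135307), an elongase of long saturated chains, had 15.97, 12.5 and 10.46 FPKM at 12 h, against 350.8, 522.6 and 317.3 FPKM at 3 h (-4.90 ± 0.25, edgeR adjusted p = 4.73e-06). Thrsp, a lipogenic protein induced by thyroid hormone and carbohydrate, had 16.4, 25.5 and 12.8 FPKM, against 411, 176.7 and 199.6 FPKM (-3.82 ± 0.38). The groups did not overlap in either gene. The fatty acid synthase Fasn (-1.42 ± 0.32), the desaturase Scd1 (-1.44 ± 0.28) and the regulators Srebf1 (-0.995 ± 0.19) and Mlxipl, ChREBP (-1.66 ± 0.23), were lower, and the 1 higher member was the elongase Elovl1, named after its value was seen (0.43 ± 0.12).

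**Figure D5:**
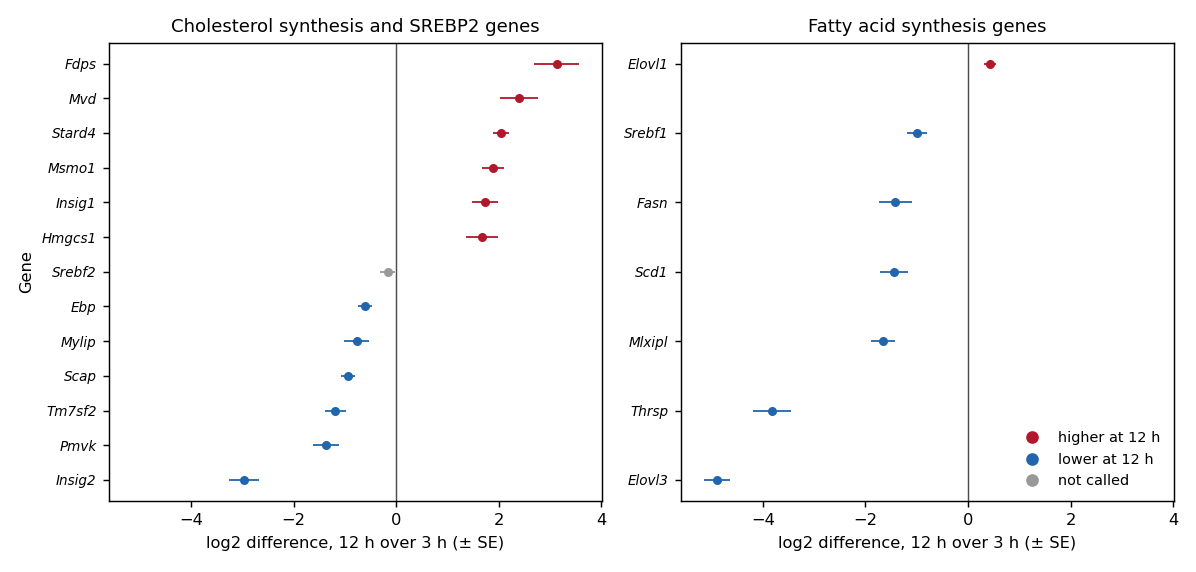
Log2 difference of 12 h over 3 h with its SE (x axis) for members named in the text, coloured by call. The cholesterol list is on the left and the fatty acid synthesis list on the right. Lpin1, also in the cholesterol list and lower at 12 h (-3.66 ± 0.61), is not drawn. The cholesterol enzymes reach 3.13 at Fdps, while the fatty acid list reaches -4.90 at Elovl3.

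Lipid storage and lipoprotein genes also had more members lower than higher. In the lipid droplet list 13 of 28 were lower and 3 higher (median -0.53): Plin5, a droplet coat protein, had 15.1, 14.7 and 11.4 FPKM at 12 h and 75.1, 94.4 and 111.2 FPKM at 3 h (-2.73 ± 0.17), and Lpin1, a phosphatidate phosphatase, had 1.71, 2.89 and 5.29 FPKM against 31.9, 14.6 and 82.2 FPKM (-3.66 ± 0.61). Of 22 apolipoprotein and lipoprotein assembly genes 12 were lower and 1 higher (median -0.52), including Apoe, with 2638, 3165 and 2313 FPKM at 12 h and 8102, 5940 and 8329 FPKM at 3 h (-1.43 ± 0.17), and Apoa1 (-1.06 ± 0.12). The 1 higher member became 2 without 3 h replicate 2 and 0 when any other library was left out, and the 3 higher lipid droplet members became 1 without 12 h replicate 2. Of 49 fatty acid oxidation genes 12 were lower and 4 higher (24.5% and 8.16%, beside 23.6% and 24.1% of all tested genes), with a median of -0.16 that was 0.01 with library totals. With library totals 14 were lower and 11 higher, and with no filter 20 were lower. The counts were 7 lower without 12 h replicate 3, and 1 or 7 higher when 1 library was left out (1 without 12 h replicate 1 or 3 h replicate 1, 7 without 3 h replicate 2). Cpt1a (0.03 ± 0.16), which lets fatty acids into mitochondria, and the receptor Ppara (0.07 ± 0.25) were not called, although Ppara was without 3 h replicate 2 (0.46). Pdk4, which diverts pyruvate from oxidation, had 5.09, 1.03 and 0.510 FPKM at 12 h and 2.60, 72.3 and 2.76 FPKM at 3 h. Its difference of -3.52 ± 1.28 (edgeR adjusted p = 0.0458) rested on 3 h replicate 2, without which it was -0.23 and not called. Its call also ended without 12 h replicate 2 (-3.18) or 3 (-3.05). G0s2, a lipase inhibitor, had 442.7 FPKM in that library and was not called without it (-0.49, against -1.84 ± 0.68 with it), without 12 h replicate 2 (-1.72) or 3 (-1.495), or by DESeq2.

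In bile acid metabolism the first enzyme of the classical route rose and most others fell. Cyp7a1 (ENSMUSG00000028240, chr4:6265612-6275633), the rate-limiting enzyme, had 13.6, 29.9 and 45.8 FPKM at 12 h, against 2.01, 0.710 and 2.44 FPKM at 3 h (4.15 ± 0.50, edgeR adjusted p = 2.00e-04), and its 6 h mean was 0.237 FPKM. Cyp7b1, of the alternative route, had 199.3, 270.9 and 252.2 FPKM against 59.3, 143.9 and 87.5 FPKM (1.34 ± 0.28). The other list members were mostly lower, 15 of 28 against 5 higher (median -0.46): the sterol 12-hydroxylase Cyp8b1 had 50.1, 55.2 and 54.6 FPKM at 12 h and 120.0, 161.0 and 132.6 FPKM at 3 h (-1.34 ± 0.13), and the bile salt export pump Abcb11 had 33.7, 41.9 and 29.8 FPKM against 123.2, 106.6 and 121.0 FPKM (-1.70 ± 0.15). Cyp27a1 was lower by the same test (-1.32 ± 0.11). The count of 5 higher members fell to 3 without 12 h replicate 3 and without 3 h replicate 1, and rose to 8 with library totals.

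Functions of the differentiated liver had more members lower than higher at 12 h in 6 lists. Of 49 urea cycle and amino acid breakdown genes 33 were lower and 3 higher (median -0.66), of 38 glucose genes 19 and 3 (-0.44), of 36 cytochrome P450 genes 20 and 2 (-0.67), of 43 conjugation enzymes 24 and 4 (-0.60), of 27 NRF2 antioxidant genes 14 and 3 (-0.44) and of 53 secreted proteins 26 and 5 (-0.40). The 5 higher secreted proteins became 2 without 3 h replicate 1, 3 without 12 h replicate 3 or 3 h replicate 3, and 12 with library totals, and the 3 higher NRF2 genes became 1 without 12 h replicate 3 or 3 h replicate 1. Sds, serine dehydratase, had 27.8, 49.2 and 42.2 FPKM at 12 h, against 277.3, 178.4 and 363.1 FPKM at 3 h (-2.74 ± 0.28), and G6pc, the last step of glucose output, had 68.7, 43.9 and 25.9 FPKM, against 348.9, 186.1 and 115.2 FPKM (-2.20 ± 0.43, edgeR adjusted p = 0.00269). Cyp2b10, an inducible drug-metabolizing enzyme, fell by 4.21 ± 0.69, and Cyp1a2 by 1.32 ± 0.13. Ttr, transthyretin, had 1464, 1672 and 1474 FPKM at 12 h, against 4202, 3193 and 4424 FPKM at 3 h (-1.32 ± 0.14), and Alb had 15570, 15960 and 17190 FPKM, against 28070, 26250 and 31140 FPKM (-0.78 ± 0.11).

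Hepatocyte transcription factors, a separate list, were divided, with 9 of 33 higher (27.3%) and 11 lower (33.3%), beside 24.1% and 23.6% of all tested genes. The median was -0.15, or 0.02 with library totals. Hnf4a, the master regulator of the hepatocyte program, had 72.1, 79.4 and 86.2 FPKM at 12 h, against 177.6, 181.8 and 217.9 FPKM at 3 h (-1.25 ± 0.12, edgeR adjusted p = 8.69e-05). Cebpa was not called (0.20 ± 0.14) except with library totals (0.37). The constitutive androstane receptor Nr1i3, which induces Cyp2b10, had 10.52, 7.51 and 6.06 FPKM at 12 h and 3.58, 3.88 and 3.71 FPKM at 3 h (1.14 ± 0.19), and so moved against Cyp2b10. Nr2f2 (1.57 ± 0.14), Esr1 (1.36 ± 0.22) and Foxa1 (1.01 ± 0.17) were higher.

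Metal handling genes had 16 of 37 members lower and 6 higher, with a median of -0.11, or 0.05 with library totals (11 higher), beside Mt1 and Mt2 above. These were 43.2% lower and 16.2% higher, against 23.6% and 24.1% of all tested genes. Hmox1, haem oxygenase, had 18.3, 8.98 and 10.3 FPKM at 12 h and 41.3, 62.2 and 46.6 FPKM at 3 h (-1.97 ± 0.26), and Slc30a10, a manganese exporter, had 3.79, 4.01 and 4.001 FPKM against 21.3, 23.7 and 17.4 FPKM (-2.37 ± 0.14). Nucleotide and polyamine synthesis went the other way on balance, with 14 of 34 higher (41.2%) and 7 lower (20.6%), and a median of 0.23. Its share lower was close to that of all tested genes. Odc1, the rate-limiting enzyme of polyamine synthesis, had 41.3, 43.4 and 48.1 FPKM at 12 h and 19.9, 24.0 and 19.4 FPKM at 3 h (1.10 ± 0.12), while Oaz1, its inhibitor antizyme, fell (-1.35 ± 0.15).

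Genes of the protein synthesis machinery held calls in both directions, beside 24.1% higher and 23.6% lower over all tested genes. The shares higher and lower were 13.6% and 24.2% for ribosome biogenesis, 29.1% and 14.5% for translation factors, and 28.6% and 16.3% for splicing factors. Ribosome biogenesis genes had 16 of 66 members lower and 9 higher, with a median of -0.07, or 0.09 with library totals (14 higher and 11 lower), among them Rcl1 (-1.18 ± 0.12) and Pno1 (0.89 ± 0.10). Translation factors and tRNA synthetases had 16 of 55 higher and 8 lower (median 0.18), with Eif5 (0.82 ± 0.14) and Eif4e (0.70 ± 0.10) higher and Tars, threonyl-tRNA synthetase, at 10.2, 10.7 and 10.7 FPKM at 12 h and 35.0, 36.3 and 29.3 FPKM at 3 h (-1.64 ± 0.12). The 8 lower members became 3 without 12 h replicate 1, 4 without 12 h replicate 2 or 3 and 5 without 3 h replicate 1, and 29 were higher and 3 lower with library totals. Splicing factors had 14 of 49 higher and 8 lower (median 0.11), and Hnrnpdl, an RNA-binding protein, rose (1.11 ± 0.10). The 14 became 9 without 12 h replicate 3, 8 without 3 h replicate 1 and 22 with library totals.

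Cytosolic ribosomal proteins had 34 of 78 members lower and 2 higher (median -0.32; 0 higher without 12 h replicate 2, 12 h replicate 3 or 3 h replicate 2), and nuclear-encoded respiratory chain genes had 49 of 76 lower and 1 higher (median -0.59). Cox6a1, a subunit of complex IV, had 186.3, 191.8 and 156.9 FPKM at 12 h, against 438.2, 363.6 and 451.8 FPKM at 3 h (-1.20 ± 0.13, edgeR adjusted p = 1.49e-04). Rps15, a small subunit protein, had 113.1, 134.3 and 113.5 FPKM, against 256.1, 200.9 and 283.9 FPKM (-1.003 ± 0.14). For both, 3 h replicate 2 was the lowest of the 3 h libraries and 12 h replicate 2 the highest of the 12 h libraries. The 1 higher respiratory chain member was Cycs, cytochrome c, named after its value was seen (0.67 ± 0.14). Many ribosomal protein genes have pseudogenes that can take a share of their reads.

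Both lists are rich in short genes, and length moved with the difference. The median deposited gene length was 1754.5 bases for the ribosomal proteins and 1737 for the respiratory chain, against 3783 over all tested genes. Some other lists with more members lower were short too, with medians of 1928 for macrophage markers, 1976.5 for apolipoproteins, 2117 for conjugation enzymes and 2220 for cytochrome P450 genes. Others were not, such as endothelial markers (4457.5) and IL-6 pathway genes (6002). From the shortest to the longest of 5 equal groups of tested genes the median log2 difference was -0.22, -0.10, 0.03, 0.09 and 0.18. By library, as deviations of log2(FPKM + 1) from each gene's mean over the 6, the medians of the shortest group were -0.13, -0.02 and -0.17 at 12 h and 0.15, 0.01 and 0.16 at 3 h. Replicate 2 of both times thus stood near 0, and the other 4 libraries lay further from it. In the shortest group, up to 1788 bases, the median was -0.45 for 41 ribosomal protein genes and -0.69 for 39 respiratory chain genes, beside -0.22 for all 2126 genes there. Among longer genes it was -0.13 and -0.49, against 0.06 for all 8497. The part of length in these counts was not tested.

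Markers of the other liver cells were mostly lower. Of 20 tested sinusoidal endothelial markers 18 were lower and 0 higher (median -0.88), of 18 Kupffer cell, monocyte and macrophage markers 13 and 1 (-0.92), and of 19 stellate cell and fibroblast markers 10 and 1 (-0.78). In bulk tissue, fewer cells of a type and less RNA per cell cannot be told apart. Summed over each list, endothelial markers had 78.7 to 93.8 FPKM at 12 h and 135.6 to 178.7 FPKM at 3 h, macrophage markers 113.3 to 139.2 and 226.1 to 265.4 FPKM, and stellate markers 67.3 to 80.7 and 117.5 to 159.6 FPKM, with no member at 0 counts over a group. Clec4f, a Kupffer cell lectin, had 14.5, 11.7 and 11.8 FPKM at 12 h and 36.7, 39.2 and 29.6 FPKM at 3 h (-1.44 ± 0.15), and the endothelial lectin Clec4g had 5.27, 8.92 and 5.82 FPKM against 13.98, 14.96 and 13.7 FPKM (-1.06 ± 0.19). The scavenger receptor Marco, also a Kupffer cell marker, ran against its list, with 6.32, 9.10 and 5.21 FPKM at 12 h and 2.79, 2.33 and 1.66 FPKM at 3 h (1.63 ± 0.27).

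Blood cell markers were low. Only 5 of 18 neutrophil markers passed the filter, of which 3 were lower. The 3 became 1 where a mean of 1 FPKM or more was required of a gene. The whole list summed to 9.51 to 11.6 FPKM at 12 h and 17.8 to 23.4 FPKM at 3 h. The granule gene Mpo was at 0 counts at both times. Ltf and Stfa2l1 were at 0 at 12 h and at only 3 and 1 counts at 3 h, too few to compare. Other untested neutrophil transcripts, named after their values were seen, went both ways. Elane had 15 counts at 12 h and 4 at 3 h and Chil3 44 and 8, while Mmp8 had 10 and 32 and Cxcr2 16 and 56. Of 22 lymphocyte markers 2 were tested and 1, Ighm, was lower (-1.95 ± 0.44), and the list summed to 4.62 to 9.58 FPKM at 12 h and 10.9 to 21.3 FPKM at 3 h. Red blood cell markers summed to 52.1 to 74.0 FPKM at 12 h and 153.2 to 177.9 FPKM at 3 h. Of the 6 tested, 5 were lower, among them Hba-a1 (-1.86 ± 0.19), whose reads may be shared with Hba-a2. Epb42 had 0 counts at 3 h and 1 at 12 h. Cholangiocyte markers had 4 members tested, 1 higher and 1 lower, with a median of -0.16 that was 0.001 with library totals. They summed to 71.8 to 77.1 FPKM at 12 h and 79.6 to 105.9 FPKM at 3 h. Sct had 0 counts at 3 h and 1 at 12 h. The part of these cells in the gene lists above was not tested.

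Remaining lists held calls in both directions, beside 24.1% higher and 23.6% lower over all tested genes. The shares were 23.1% higher and 30.8% lower for cytoskeleton genes, and 24.1% and 31% for insulin, IGF and FOXO genes. Cytoskeleton genes had 12 of 52 higher and 16 lower, with a median of -0.04 that was 0.12 with library totals, where 20 were higher and 14 lower, and 0.01 without 3 h replicate 1. Tubb2a, a beta tubulin, had 18.2, 25.7 and 19.6 FPKM at 12 h and 138.4, 102.3 and 67.9 FPKM at 3 h (-2.26 ± 0.25), while Tubb5, another beta tubulin, was higher (1.43 ± 0.18). Proteasome subunits had 3 of 41 higher and 11 lower, with a median of -0.07 that was 0.09 with library totals, where 11 were higher and 7 lower. The 11 lower became 6 without 12 h replicate 1 and 7 without 12 h replicate 3, and the 3 higher became 1 without 3 h replicate 1. Insulin, IGF and FOXO genes had 7 of 29 higher and 9 lower, with a median of -0.04 that was 0.12 with library totals, where 10 were higher and 8 lower. These became 4 higher without 3 h replicate 1 and 5 lower without 12 h replicate 1. Nutrient transporters had 4 of 27 higher, or 2 without 12 h replicate 1 or 3 h replicate 3, and 10 lower (median -0.30). Of 13 mitochondrially encoded genes 4 were higher and 2 lower (median 0.09). These counts were 2 higher without 12 h replicate 1 or 3, and 0 lower without 12 h replicate 3, 3 h replicate 1 or 3 h replicate 3. The largest called difference was that of mt-Atp6 (-0.96 ± 0.32), whose groups overlapped and whose call ended without 3 h replicate 3 (-0.54), 3 h replicate 1 (-0.99), 12 h replicate 1 (-0.85) or 12 h replicate 3 (-0.87) and under DESeq2.

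Some of the largest differences lay outside these pathways. The largest fall was listed for Pitx3 (ENSMUSG00000025229, chr19:46135685-46148326), a homeobox gene known from lens and midbrain, with 0.106, 0 and 0 FPKM at 12 h and 5.17, 13.3 and 2.97 FPKM at 3 h. Its 3′ end lies 377 bases beyond that of Elovl3, and the genes are read towards each other from opposite strands. Its FPKM was 0.666%, 0% and 0% of that of Elovl3 in the 12 h libraries, against 1.47%, 2.54% and 0.935% in the 3 h libraries, and the strand used in counting is not given in the sources used here, so reads of the 2 genes may not be separable. Fbf1, a ciliary protein gene, had 1.005, 0.968 and 0.275 FPKM at 12 h, against 25.4, 41.3 and 29.9 FPKM at 3 h (-5.39 ± 0.42, edgeR adjusted p = 2.88e-05), and Coq8a, a kinase-like protein of coenzyme Q synthesis, had 2.62, 3.96 and 1.63 FPKM, against 49.3, 34.1 and 45.0 FPKM (-3.93 ± 0.30). For Coq8a the 6 h mean was 5.05 FPKM, and for Fbf1 it was 6.50 FPKM.

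Among the rises, Ly6d, a surface protein, had 45.7, 50.3 and 30.3 FPKM at 12 h, against 3.98, 7.00 and 2.43 FPKM at 3 h (3.26 ± 0.33, edgeR adjusted p = 9.11e-05). The major urinary protein genes Mup8 and Mup13 were also among the largest rises, and belong to a cluster of near-identical copies whose reads can be split. Mup8 had 4.23, 8.22 and 112.5 FPKM at 12 h and 1.501, 2.54 and 2.83 FPKM at 3 h (4.21 ± 1.14, edgeR adjusted p = 0.0131), so that 1 library held most of its level and its call ended under limma on FPKM, limma-voom and edgeR's robust option. Mup13 had 250.9, 278.0 and 73.9 FPKM at 12 h and 17.7, 7.90 and 19.4 FPKM at 3 h (3.78 ± 0.50), and in it 12 h replicate 3 was the lowest of its group. Of genes that are not protein coding, with 5 FPKM or more in the higher group, the polymorphic pseudogene Gbp11 was higher (3.06 ± 0.43) and the pseudogene Cyp21a2-ps lower (-1.86 ± 0.27).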

How the data were processed

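Bulk poly(A) RNA-seq libraries of mouse liver were compared, 3 taken 12 h and 3 taken 3 h after resection. The authors deposited, per gene, raw read counts and FPKM values, per the file headers. The submitters' processing notes name CASAVA 1.8, fastp, HISAT2 2.0.5, featureCounts 1.5.0-p3, DESeq2 1.20.0 and GRCm38; the strand setting of the counting is not given in the sources used here. The deposited FPKM equal counts over gene length over a library size scaled by a size factor (largest relative error 4.5e-07). That size was 1.07 to 1.12 times the library total at 12 h and 0.922 to 1.00 times at 3 h.

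Counts were tested with edgeR 4.0.16 (TMM, quasi-likelihood F-test) on the 10623 genes that reached 1 FPKM in at least 3 of the 6 libraries, and p-values were Benjamini-Hochberg adjusted over all of them. On simulated data for these 10623 genes, the right direction was called for 22 of 50 genes simulated with a 1.5-fold difference. It was called for 49 of 50 with 2-fold, 50 of 50 with 4-fold and 49 of 50 with 8-fold, and 11 of 10423 unchanged genes were called. The simulation changed few genes, equally up and down, while 47.6% of tested genes were called here. Its rates need not hold for these data. Alternatives numbered 20 and used limma 3.58.1 and DESeq2 1.42.0 besides edgeR.

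Named genes were the 15 largest called rises and the 15 largest falls, limited to protein-coding genes whose higher group averaged at least 5 FPKM and whose groups were separate, up to 8 called members of each list, 41 genes of interest whatever their result, and up to 4 genes that are not protein coding. Others are marked as chosen after their values were seen. The comparison, the gene lists and the rule were chosen with earlier results of these data known. Some genes that the rule names are not reported here. Mean FPKM ratios are of the deposited values.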

Additional observations from a re-analysis of the deposited data

How the results depend on the processing

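No gene called here was called in the opposite direction under any of the 20 alternatives. Of 357 named genes called, 325 kept their call when any 1 library was left out, 330 under every other alternative except the 2-fold minimum, and 321 under all of these. Tested against a minimum of 2-fold with edgeR's glmTreat, 223 genes were higher and 258 lower, 481 in all. Leaving out 1 library gave 1975 to 2343 higher and 2009 to 2351 lower genes. Equal replicate numbers did not pair the samples (correlations of their deviations -0.108, -0.161 and 0.041), and with a replicate block 2258 genes were higher and 2241 lower. With library totals the list medians turned to 0.119 for cytoskeleton genes, 0.001 for cholangiocyte markers, 0.010 for fatty acid oxidation, 0.110 for growth factors, 0.023 for hepatocyte transcription factors, 0.121 for insulin, IGF and FOXO genes, 0.052 for metal genes, 0.091 for proteasome subunits and 0.090 for ribosome biogenesis. Leaving out 1 library gave cytoskeleton medians of -0.138 (12 h replicate 2) to 0.009 (3 h replicate 1) and growth factor medians of -0.147 (3 h replicate 3) to 0.120 (12 h replicate 2), with 0.069 without 3 h replicate 2. The mitosis median was -0.438 with a mean of 1 FPKM or more, which tests other members. The other causes were not tested.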
